A study of Mus musculus with 21 samples.

Results

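Cytosolic ribosomal protein genes encode the protein part of the ribosomes that translate nuclear messages. Members were the protein-coding genes of the RefSeq mouse table whose symbol is Rpl, Rps or Rplp followed by a number and at most a short suffix, with the Rps6k kinases left out. The rule gave 84 genes of 21887 protein-coding genes, 53 with large-subunit (60S) names and 31 with small-subunit (40S) names. It leaves out genes of the ribosome with other names, such as Rpsa, Fau and Rack1, which are given separately.

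Trimethylation of lysine 36 of histone H3 (H3K36me3) was profiled by chromatin immunoprecipitation and sequencing in C2C12 cells, mouse myoblasts that can be made to fuse into myotubes in culture. Wild-type (WT) cells gave 2 libraries at day 0 and 2 in each of control medium and methionine restriction at day 1 and at day 5. Setd2 knockout (KO) lines 1 and 2 each gave 1 library in the same 5 conditions, which makes 20 peak lists. The titles number the knockouts 1 and 2 and call each library replicate 1, while the peak names inside the lists number them as replicates of one knockout, so KO line 1 and KO line 2 stand here for those numbers, and whether they are separate lines cannot be told apart from these sources. The labels state neither how the lines were made nor whether each is a clone, and no label says that the WT replicates were separate cultures, so the p-values measure only the spread between these libraries.

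H3K36me3 is laid down by SETD2, which travels with elongating RNA polymerase II, so the mark covers the bodies of transcribed genes and usually strengthens towards their 3′ ends. Ribosomal protein genes are short, among the most highly transcribed genes of a dividing cell, and often carry small nucleolar RNA (snoRNA) genes in their introns. Their messages start with a run of pyrimidines, the terminal oligopyrimidine (TOP) tract, through which mTOR signalling controls their translation. Methionine is a precursor of S-adenosylmethionine, the methyl donor of histone methylation.

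The measure is cover, the percent of a gene's annotated body that lies inside the merged peaks of a library. Marked below means a cover of 50% or more. Cover says how much of a gene was called as peak and not how strong the signal was there, and the read depth of the libraries is unknown because peak lists carry none. In bulk chromatin, loss of the mark from some cells and a weaker mark in every cell cannot be told apart. WT lists held 63423 to 87398 peaks over 110 to 183 Mb, KO line 1 lists covered 0.307 to 74.1 Mb and KO line 2 lists 0.00821 to 7.13 Mb. The 2 day 5 libraries of KO line 1, at 74.1 Mb in control medium and 45.8 Mb under restriction, stand apart from its other 3, which covered at most 17.7 Mb. Setd2 itself was covered to 45.6% to 82.8% in the WT libraries, to 24.0% in KO line 1 at day 5 in control medium, to at most 3.16% in its other libraries, and was listed at 0 in all 5 libraries of KO line 2. In WT cells 3 of 4 myoblast markers were marked at day 0, and 5 of 5 differentiated muscle markers were marked at day 5 in control medium but 0 of 5 at day 0. The 6 markers of leukocytes, hepatocytes, lung epithelium, endothelium and keratinocytes had a summed cover of at most 5.82% in any library.

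The members are short. Their bodies ran from 0.592 to 11.8 kb with a median of 3.17 kb, against a median of 17.3 kb for the other protein-coding genes. Within their bodies 29 of them hold 56 snoRNA genes. Of the 84, 62 have annotated pseudogene copies by symbol, 304 in all, and Rpl31 and Rps12 lead with 23 each. Reads of a member and its copies can be shared, and how such reads were treated is not given in the sources used here, so the cover of these 62 genes is uncertain. Copies that lie outside protein-coding genes were seldom marked themselves: 0 to 3 of 231 in any library. Of the 73 copies that lie inside another protein-coding gene, 6 to 13 were marked in WT libraries.

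The RefSeq promoter table (GRCm38.p6) held 64 of the 84 members. The 50 bases around the start are shown for 8 of them, 25 before it and 25 from it on, to show the longest pyrimidine run near the start. The genes are the 4 with promoters that lost most cover under restriction at day 1, then Rps15 and Rps28, which carried more cover in the day 5 control library of KO line 1 than in WT, Rpl28, whose loss under restriction differed between the days, and Rpl3l, a muscle paralog with no cover. Capitals mark the longest unbroken run of C and T on the gene's strand.
Rps18, chr17:33955641-33955690, minus strand: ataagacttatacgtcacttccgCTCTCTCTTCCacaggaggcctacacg
Rps9, chr7:3704016-3704065, plus strand: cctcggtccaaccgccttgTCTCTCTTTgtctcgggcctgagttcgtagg
Rps12, chr10:23787185-23787234, minus strand: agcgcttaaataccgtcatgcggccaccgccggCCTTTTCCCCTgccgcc
Rpl35a, chr16:33056428-33056477, plus strand: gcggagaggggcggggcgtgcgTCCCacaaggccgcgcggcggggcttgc
Rps15, chr10:80292406-80292455, plus strand: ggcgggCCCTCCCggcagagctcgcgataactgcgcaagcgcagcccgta
Rps28, chr17:33824538-33824587, minus strand: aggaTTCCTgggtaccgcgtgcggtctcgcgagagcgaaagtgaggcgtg
Rpl28, chr7:4792940-4792989, plus strand: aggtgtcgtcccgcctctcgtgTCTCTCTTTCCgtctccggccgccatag
Rpl3l, chr17:24727801-24727850, plus strand: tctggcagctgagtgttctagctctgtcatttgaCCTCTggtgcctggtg
Rps18, Rps12 and Rpl28 each carry a run of 11 pyrimidines and Rps9 one of 9, whereas Rpl35a has 4 at the annotated start. A run of at least 8 lay in this window in 31 of 64 members (48.4%), against 18.8% of 17492 protein-coding promoters. The letters CTTTCC occurred on the gene's strand within the 300 bases of the table in 32.8% of members and 13.8% of all promoters, and on either strand in 45.3% and 25.8%. These matches are descriptions of the annotated window, and 1 start per gene was read. The runs marked in Rps15 and Rps28 lie wholly before the annotated start and so outside the message. The starts read for Rps9 and Rps12 lie 87 and 174 bases inside the annotated gene.

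Nearly the whole family was marked in WT cells at day 0. The libraries of that day had 74 and 73 of 84 members marked, with a median cover of 79.6% and 82.4%, while 25.1% and 23.2% of the other protein-coding genes were marked. Among genes of 2 to 4 kb, 40 of 40 members were marked in both libraries, against 18.6% and 19.4% of 1588 others. Over the 6 WT libraries of day 0 and of control medium, 65 members were marked in every one. The widest cover over all 10 WT libraries belonged to Rpl3, which sits near the peptidyl transferase centre (mean 85.4%), followed by Rpl23 (81.1%), Rpl5, which carries 5S ribosomal RNA into the large subunit (80.4%), Rps7 (79.0%) and Rps3 (78.9%).

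At the other end, Rpl3l, Rpl10l, Rpl39l and Rpl32l were listed at 0 in all 10 WT libraries, and the other 80 members passed the filter of a mean WT cover of at least 5%. Rpl3l is the paralog of Rpl3 in mature striated muscle, and Rpl10l and Rpl39l are testis paralogs. Rpl3l stayed at 0 in all 20 libraries, day 5 included. The lowest cover among the 80 was that of Rpl36 (mean 6.51%) and Rpl36al (9.09%). The annotated bodies of Rpl36, Rpl18 and Rpl19 run to 4.15, 5.37 and 8.49 kb. Rpl18 was covered to 36.8% and 39.2% and Rpl19 to 32.2% and 32.8% at day 0, and over the WT libraries they ranged from 19.1% to 39.2% and from 21.8% to 33.0%.

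**Figure D1:**
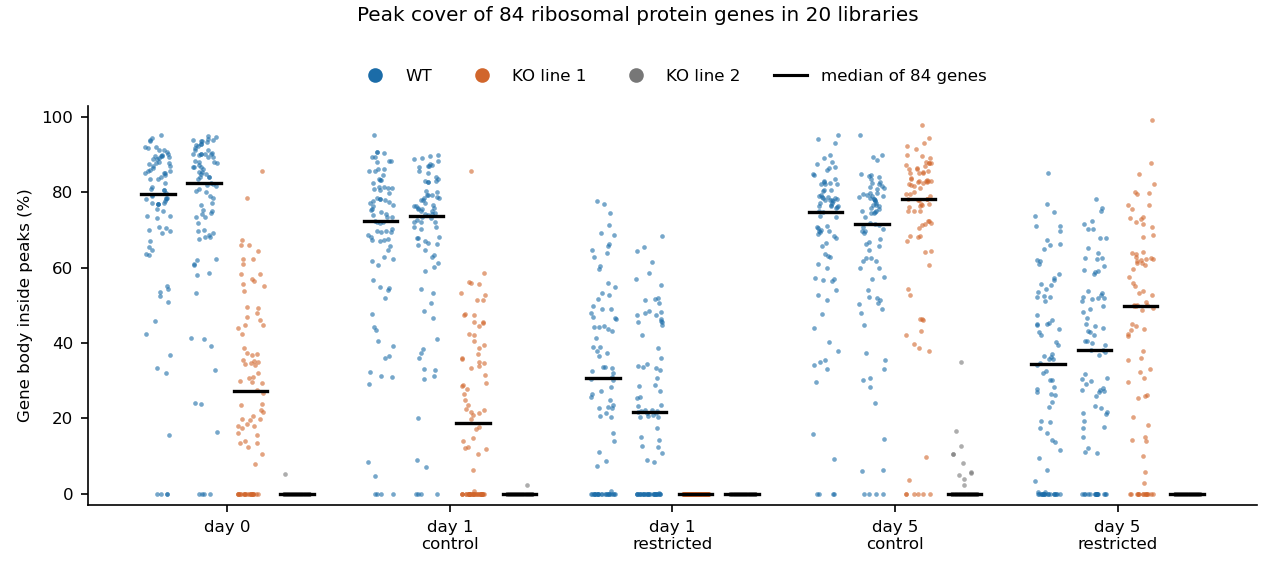
Percent of the gene body inside peaks for each of the 84 genes (points, spread sideways at random) in the 20 libraries, with the median as a black line. The WT medians stand at 71.5% to 82.4% at day 0 and in control medium and at 21.7% to 38.1% under restriction, KO line 1 reaches 78.1% in its day 5 control library, and KO line 2 has a median of 0 throughout.

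The first question was how the family differed between methionine restriction and control medium at day 1 in WT cells. Nearly all ribosomal protein genes lost cover. The number marked was 67 in both control libraries and 18 and 11 in the restricted libraries, and the median cover went from 72.3% and 73.7% to 30.7% and 21.7%. Cover fell in 72 of the 80 members tested and rose in 0 (limma, Benjamini-Hochberg adjusted over 9681 genes), where 35.8% of all genes tested were called lower and 2.3% higher. The median difference was −38.1 points over the members and −8.11 points over all genes tested. By subunit, 44 of 49 members with 60S names and 28 of 31 with 40S names were called lower.

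Genes of the small subunit headed the list. Rps18 (chr17:33951998-33955665, minus strand), a protein of the 40S head, was covered to 89.3% and 88.4% in control medium and was listed at 0 in both restricted libraries (difference −88.9 points, SE 4.27, limma adjusted p = 2.36e-05). Rps12 had 81.3% and 79.3% in the control libraries and 0 in the restricted ones (limma adjusted p = 1.94e-05). Rps9 went from 80.6% and 87.0% to 0 in both restricted libraries (limma adjusted p = 0.000503). Rps20 went from 69.4% and 77.2% to 0 (limma adjusted p = 3.76e-05). The leading large-subunit gene was Rpl35a, one of the genes mutated in Diamond-Blackfan anaemia, with 74.3% and 73.6% in control medium and 0 in both restricted libraries (limma adjusted p = 0.000275). In these 5 genes the groups lay far apart, since no peak touched the body in either restricted library.

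The 8 members not called at day 1 included Rpl22l1, Rps27a, Rpl6, Rps27l, Rpl18, Rpl19 and Rpl36al, with differences of −5.85 to −23.6 points. Among the called members Rps7 had 66.2% and 68.3% left under restriction and Rpl3 76.8% and 61.6%.

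At day 5 the same comparison gave 69 and 67 marked members in control medium and 25 and 27 under restriction, with medians of 74.9% and 71.5% against 34.5% and 38.1%. Cover fell in 63 of 80 members and rose in 0 (limma adjusted p under 0.05), where 41.4% of all genes were called lower and 4.26% higher. The median difference was −29.4 points over the members and −9.24 points over all genes. Of the 60S names 37 of 49 were called lower, and of the 40S names 26 of 31.

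Rps18 again changed most, from 88.0% and 84.8% to 0 and 10.9% (difference −80.9 points, SE 4.27, limma adjusted p = 1.13e-05). Rps16 (chr7:28350689-28352698) fell from 70.6% and 66.4% to 0 in both restricted libraries (limma adjusted p = 2.51e-05). Rps20 had 63.0% and 71.6% in control medium and 3.36% and 0 under restriction (limma adjusted p = 2.98e-05). Rpl41, the smallest ribosomal protein, lies in a gene of 1.06 kb that was covered to 80.5% and 49.1% in the control libraries and had none in the restricted ones (limma adjusted p = 0.000808). Rpl29 fell from 57.1% and 65.9% to 0.485% and 0 (limma adjusted p = 6.19e-05). These genes were named for a large difference between groups that do not overlap. When the longer lists were shortened to the 110 Mb of the shortest WT list, Rps20 and Rpl41 lost all cover in both media at day 5 and so their calls.

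**Figure D2:**
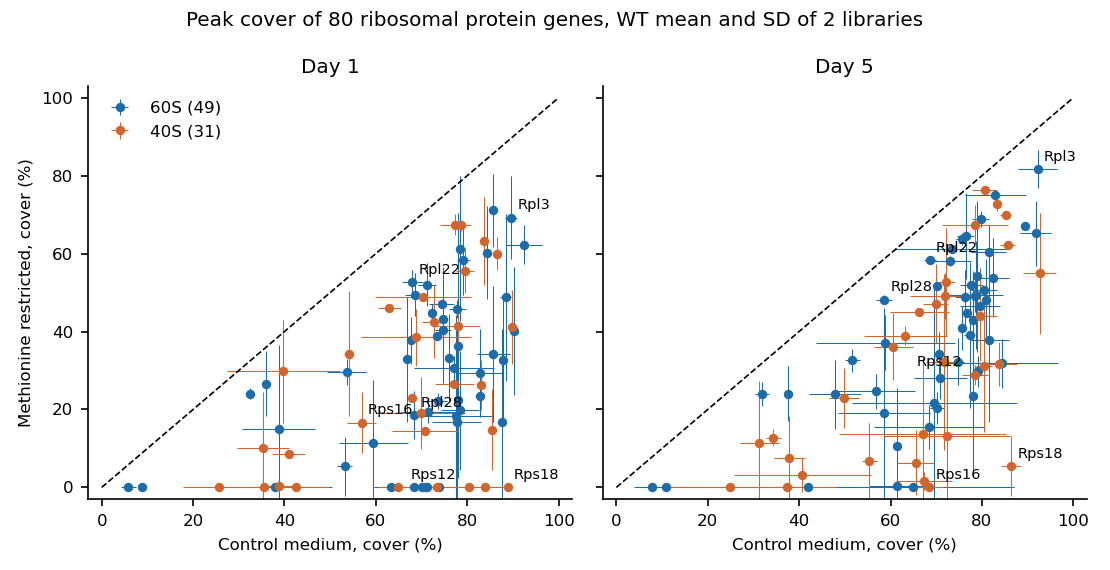
Mean cover of the 80 tested genes in control medium (x axis) and under restriction (y axis) at day 1 and day 5 in WT cells, with bars of 1 SD (n = 2) and the line of equality. All 80 means lie below the line on both days, and Rps18 sits at or near 0 under restriction at both.

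The direction of the restriction effect held under other scalings. Shortening the lists to equal covered length left 64 members called lower and 0 higher at day 1, where 1671 of 8449 genes were lower and 672 higher. At day 5 it left 55 and 0, where 1725 genes were lower and 1283 higher. Centring each library on its median over the tested genes moved the median difference of all genes from −8.11 to 7.38 points at day 1 and from −9.24 to 7.70 at day 5. On that scale 50 members were lower and 1 higher at day 1, and 28 were lower and 3 higher at day 5, while of the 9681 genes 1262 were lower and 3601 higher at day 1, and 1398 and 3818 at day 5. Other measures moved with restriction. The 5 differentiated muscle markers had a summed cover of 429% and 450% at day 5 in control medium and 96.5% and 120% under restriction. The myoblast markers had 3 of 4 genes marked in each control library and 1 of 4 in each restricted library on both days. Their part in the members' result was not tested.

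Losses were also set beside gene length. Of the 67 members marked in both day 1 control libraries, 11 (16.4%) were marked in both restricted libraries, against 2183 of 4029 other genes (54.2%). Most of those others are long. Under 2 kb, 0 of 5 members and 14 of 47 others (29.8%) stayed marked at day 1, and 0 of 4 and 22 of 52 (42.3%) at day 5. Among genes of 2 to 4 kb, 1 of 38 members (2.63%) and 20 of 206 others (9.71%) stayed marked at day 1. Among genes of 4 to 8 kb the shares were 7 of 20 (35.0%) and 150 of 544 (27.6%). At day 5 they were 3 of 38 (7.89%) and 54 of 204 (26.5%) at 2 to 4 kb, and 12 of 19 (63.2%) and 266 of 593 (44.9%) at 4 to 8 kb. At 8 kb and over 3 of 4 members stayed marked on either day, against 61.9% and 65.4% of others. By this share members were below other genes of their class under 4 kb and above them from 4 kb on. This is a description with no test, and the class of 8 kb and over has no upper length limit. Median cover of the marked members there went from 84.9% to 56.5% at day 1, and of others from 71.7% to 59.1%. At 4 to 8 kb members went from 78.6% to 46.1% and others from 69.5% to 43.7%. The 11 members marked in all 10 WT libraries, among them Rpl22, Rpl5, Rps3, Rpl23, Rpl27, Rps7, Rps24, Rpl3, Rps10 and Rpl7l1, have bodies of at least 3.35 kb. Across the 80 members the differences of the 2 days ran together, with a Spearman rho of 0.80, and those with gene length gave 0.26 at day 1 and 0.37 at day 5, against 0.40 and 0.15 over the 9601 other genes, given as a description because genes in the same libraries are not independent.

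**Figure D3:**
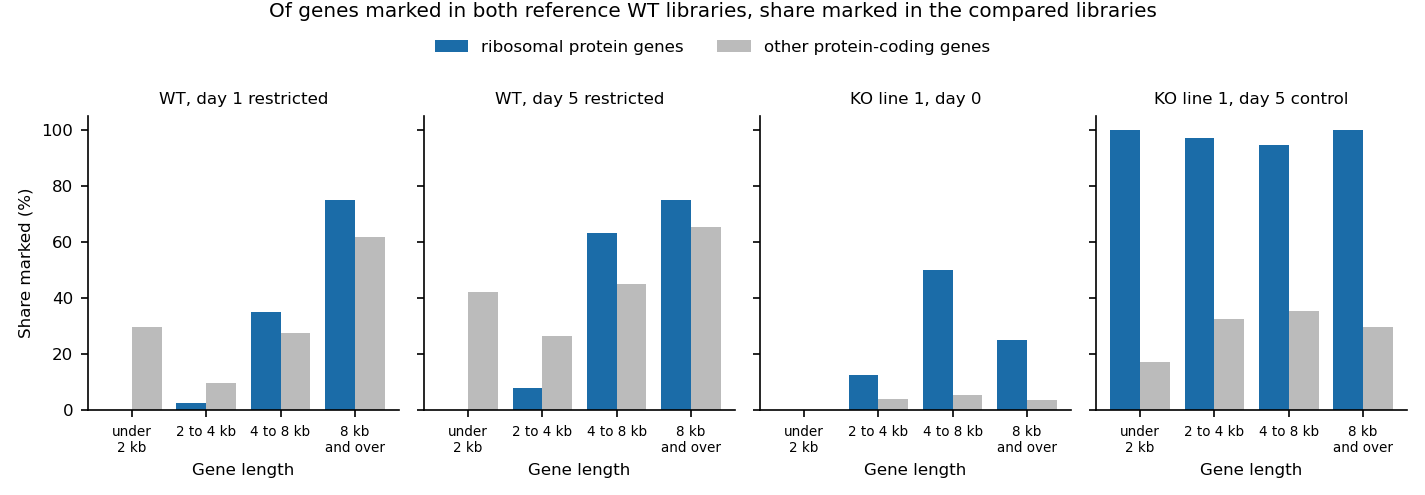
Share of genes marked in both reference WT libraries (control medium of the same day for WT, the same condition for KO line 1) that were also marked in the compared libraries, by gene length, for ribosomal protein genes and other protein-coding genes. Under restriction no member under 2 kb stayed marked (0 of 5 at day 1 and 0 of 4 at day 5), and 2.63% and 7.89% did at 2 to 4 kb. In KO line 1 at day 5 in control medium members stand at 94.7% to 100% and others at 17.3% to 35.2%.

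The cover that remained under restriction lay towards the 3′ end. In 60 members with a known strand, cover in the 5 equal segments from 5′ to 3′ rose steeply at day 1 in control medium, and segments 2 to 5 averaged 61.8%, 83.3%, 94.2% and 97.6%, with 93.7% in the 1 kb beyond the gene. Under restriction segment 1 had 0.318%, the other segments had 9.96%, 31.4%, 50.2% and 49.0%, and the 1 kb beyond had 29.2%. Segment 1 had only 10.9% and 9.15% in the control libraries, and the fourth and the fifth segments kept the most. Other genes of 2 to 8 kb with a mean WT cover of at least 5% (1363 genes) went from 31.5% to 9.83% in segment 2 and from 74.9% to 40.8% in segment 5. The 2 restricted libraries differed from each other by an SD of 12.4 points in segment 5 of the members and by at most 9.0 in the other segments. At day 5 the members had 7.8%, 60.2%, 82.5%, 93.9% and 98.0% in control medium and 0.7%, 13.4%, 40.7%, 61.2% and 67.0% under restriction.

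**Figure D4:**
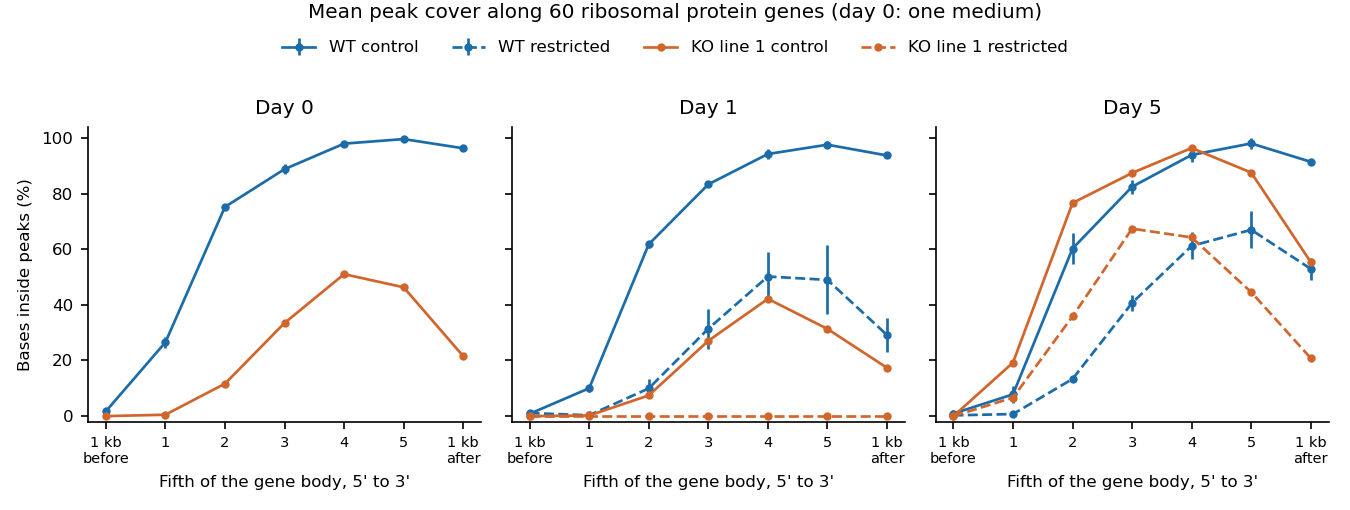
Mean percent of bases inside peaks in the 1 kb before, the 5 equal segments of and the 1 kb after the body of 60 ribosomal protein genes with a known strand, for WT (bars are 1 SD, n = 2) and KO line 1 (1 library per condition). Cover rises towards the 3′ end in WT, and KO line 1 at day 5 in control medium is above WT in segments 1 to 4, and below it in segment 5 (87.5% against 98.0%) and beyond the gene (55.4% against 91.4%).

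The restriction effect of day 5 was compared with that of day 1 to ask which members responded differently. It differed for 3 of 80 members, 1 lower and 2 higher (limma adjusted p under 0.05), where 3.53% of all genes were called lower and 1.58% higher. Over both directions together that share is no more than the background, while the 2 higher of 80 are slightly above the 1.58%. Leaving out 1 library gave 1 to 9 calls. Rpl28 (chr7:4792965-4794547, plus strand), a large-subunit gene of 1.58 kb, went from 68.8% and 67.9% to 22.9% and 14.2% at day 1, but from 57.3% and 59.8% to 47.4% and 49.0% at day 5 (difference between days 39.4 points, SE 5.70, limma adjusted p = 0.00709). With only peaks of a −log10 q of at least 3 the Rpl28 difference was 9.79 points (adjusted p = 0.356). Rps12, at 0 under restriction on day 1, had 80.6% and 76.5% in control medium and 27.1% and 30.7% under restriction on day 5 (difference 30.6 points, limma adjusted p = 0.0118). Its call was lost in shortened lists, with the stricter q, without replicate 1 of day 1 control (0.0577) and without replicate 2 of restricted day 5 (0.0604). Rps16 went the other way, with 54.6% and 59.1% in control medium and 11.1% and 22.1% under restriction at day 1 and 0 left at day 5 (difference −28.2 points, limma adjusted p = 0.0443), and its call was lost in 11 of 20 alternatives, with adjusted p up to 0.289.

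The stalk of the large subunit, which recruits the translation factors, is encoded by Rplp0, Rplp1 and Rplp2. Rplp0 had 75.6% and 76.4% in day 1 control medium and 41.2% and 25.3% under restriction. Rplp1, a gene of 1.23 kb, had 60.7% and 66.0% and then 0 in both restricted libraries. Rplp2 had 77.9% and 78.0% and then 16.1% and 28.9%. At day 5 under restriction they had 55.6% and 65.3%, 0 and 38.0%, and 40.4% and 67.9%. All 3 genes were called lower on both days, where 35.8% and 41.4% of all genes were.

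Paralogs within the family differed in level. Rpl22, an RNA-binding protein of the large subunit, was covered to between 50.6% and 73.1% in the 10 WT libraries. Its short paralog Rpl22l1 had 0 to 53.4%. Rpl7l1, in a gene of 8.75 kb, was covered to 51.8% to 90.3%, and Rpl7, at 3.14 kb, to 38.7% to 78.6%. Rpl10 and Rpl39 had 67.6% to 80.9% and 68.2% to 69.2% at day 0, with Rpl10l and Rpl39l at 0. Rpl36a had 67.1% and 62.3% at day 0 where Rpl36al had 33.4% and 24.0%. Rps27 (0.98 kb) had 42.5% and 41.4% and Rps27l (4.90 kb), a target of p53, had 55.2% and 23.8%, so that the replicates of Rps27l lay on either side of Rps27. Rps4x had 85.2% and 84.8%, and its relative Rps4l is annotated as a pseudogene and is no member. The widths of these gene bodies differ, and cover compares genes only as a share of each body.

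Differentiation in control medium was followed in WT cells from day 0 to days 1 and 5, comparisons that share the day 0 libraries. Cover changed little in most members. From day 0 to day 1, 5 of 80 members were called lower and 0 higher (limma adjusted p under 0.05), where 5.64% of all genes were called lower and 0.961% higher, so the members' share of 5 in 80 is near the background. The median of the members was −6.95 points, and it turned to 1.61 when libraries were centred. The 5 were Rps21, Rpl36al, Rps2, Rps7 and Rpl36. Rps2 went from 63.3% and 60.7% to 43.5% and 38.4% (difference −21.1 points, SE 3.41, limma adjusted p = 0.0130), and Rps7 went from 90.6% and 93.8% to 78.6% and 78.9%. The Rps2 call was lost in 4 of 20 alternatives, centring and shortened lists among them, with adjusted p up to 0.489, and that of Rps7 in 5 of 20. The call of Rps21 was lost in 14 of 19 alternatives and that of Rpl36 in 13 of 20, and Rpl36 turned to 1.42 points when libraries were centred. With only the libraries compared, limma called 0 members and 0 of all genes, and 0 members were called without replicate 2 of day 1 control.

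From day 0 to day 5 in control medium 13 of 80 members were called lower and 0 higher, where 15.6% of all genes were called lower and 12% higher. The members' share is near the background, and the calls comprised 9 of 31 with 40S names and 4 of 49 with 60S names, a difference that was not tested. Rps21, in a gene of 1.07 kb, fell from 70.5% and 68.6% to 35.0% and 14.5% (difference −44.7 points, SE 6.35, limma adjusted p = 0.00123). Rps2 fell to 35.5% and 33.2% (limma adjusted p = 0.000552). Rps20 fell from 89.2% and 93.7% to 63.0% and 71.6%, and Rps6, the substrate of S6 kinase, from 86.4% and 86.8% to 56.9% and 69.7%. The call of Rps2 was lost in shortened lists (limma adjusted p = 0.116), and that of Rps6 in 3 of 20 alternatives, with adjusted p up to 0.186. Without replicate 2 of day 0 there were 8 calls and without replicate 2 of day 5 control 7. Between day 1 and day 5 in control medium limma called 0 of 80 members in either direction, where 5.84% of all genes were called lower and 16.6% higher. At an unadjusted p under 0.05, 3 members were lower and 1 higher, where 8.97% and 26.4% of all genes were. With centred libraries, and also with shortened lists, 4 members were called lower and 0 higher, where 1160 of 9681 and 914 of 8449 genes were lower.

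The 2 KO lines were compared with WT over all 5 conditions, in fits that share the WT libraries. In KO line 2 the members were almost bare: 0 of 84 were marked in any of the 5 libraries, and 72 had no peak base at all. All 80 tested members were called lower than WT and 0 higher (limma), where 97.7% and 0.0% of all genes were. With centred libraries 30 were lower and 8 higher, where 3475 of the 9681 genes were lower and 3687 higher. Because the filter on cover uses WT libraries, a difference downwards is favoured and the count describes size only. For members with no peak base in line 2 the centred direction follows from WT values and the subtracted medians alone. Of the 12 members with any cover in line 2, 11 had it at day 5 in control medium, led by Rps16 with 35.0%, Rpl37 with 16.7%, Rpl4 with 12.6%, Rpl13 with 10.5% and Rpl23 with 10.4%. Rplp1, Rpl35, Rpl34, Rpl9, Rpl14 and Rpl19 had 2.39% to 8.05% there. The exception was Rpl39l, with 5.22% at day 0, 2.29% in the day 1 control library and no cover in any WT library.

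In KO line 1 few ribosomal protein genes were marked at days 0 and 1, and most were marked in the day 5 control library. Marked members numbered 16 at day 0, 9 at day 1 in control medium, 0 at day 1 under restriction, 68 at day 5 in control medium and 41 at day 5 under restriction. The medians in the same order were 27.1%, 18.8%, 0, 78.1% and 49.8%. Over the 5 conditions 43 of 80 members were called lower than WT and 0 higher (limma), where 91.9% of all genes were called lower and 0.0826% higher. That average mixes unlike conditions, and centring turned it to 0 lower and 46 higher, where 2280 of the 9681 genes were lower and 4297 higher, so KO line 1 was set beside WT within each condition, in a fit chosen after the data were seen. Its spread comes from the WT pairs, and the single KO library is assumed to vary like them. With no KO replicate, every call and p-value from this fit compares 1 library with a WT pair, not the line with WT. In all KO line 1 fits the filter on WT cover favours a difference downwards. Their counts of lower calls therefore describe size only.

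At day 0, 76 of 80 members were lower in KO line 1 than in WT and 0 higher, where 91.6% of all genes were lower and 0.031% higher. In the day 1 control libraries 75 were lower and 0 higher, where 85.8% and 0.093% of all genes were, and in the restricted ones 45 were lower and 0 higher, where 74.5% and 0.0% were. With the stricter q the 45 became 12. The count over all genes at that q is not given here, so the drop has no background beside it. All 80 lay below both WT libraries at day 0, where 97.1% of all genes did and 0.145% lay above both. The same held for all 80 at day 1 with control medium, where 96.5% of all genes were below and 0.331% above. With restriction, where every member was at 0 in KO line 1, 55 lay below both and 25 tied with a WT library at 0, where 89.1% of all genes were below and 0.0207% above. With centred libraries 6 were lower and 26 higher at day 0, where 1941 of the 9681 genes were lower and 3838 higher, so the members' share of higher calls was below that of all genes. At day 1 the members' numbers were 16 and 18 in both media, where 2515 and 3559 of all genes were with control medium and 3110 and 2777 with restriction. With restriction at day 1, where every member was at 0 in KO line 1, the centred directions follow from WT values and the subtracted medians alone. As a description with no test, of the members marked in both WT libraries at day 0 16 of 72 (22.2%) were marked in KO line 1, against 187 of 4765 others (3.92%). By length these were 0 of 8 members under 2 kb, 5 of 40 at 2 to 4 kb, 10 of 20 at 4 to 8 kb and 1 of 4 longer ones. At day 1 the shares were 9 of 67 (13.4%) against 3.55% in control medium, and 0 of 11 against 0 of 2333 with restriction.

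At day 5 in control medium the cover of most members in KO line 1 was at or above that of WT. Of 80 members 58 lay above both WT libraries, 9 neither and 13 below both, while 6.04% of all genes tested lay above both and 88.6% below both. By limma 5 members were lower and 8 higher, where 73.2% of all genes were lower and 1.71% higher. Centring moved the median difference of all genes from −27.6 to 16.9 points, and 0 members were then lower and 78 higher, where 1115 of the 9681 genes were lower and 5100 higher. The median difference over the members was 6.18 points before centring. Of the 65 members marked in both WT libraries 63 (96.9%) were marked in KO line 1, against 1420 of 4676 others (30.4%), and at 2 to 4 kb the shares were 37 of 38 (97.4%) and 66 of 204 (32.4%).

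The 8 members called higher had both 40S names, among them Rps28, Rps21, Rps15 and Rps6, and 60S names, namely Rpl7, Rpl28 and Rpl12. Rps28 had 72.4% in KO line 1 and 51.3% and 30.1% in WT (difference 31.7 points, SE 10.4, limma adjusted p = 0.0227). Rps15 (chr10:80292431-80294114, plus strand) had 85.1% in KO line 1 and 68.4% and 62.6% in WT (difference 19.6 points, limma adjusted p = 0.0248). Rps21 had 46.1% against 35.0% and 14.5%, and Rps6 81.2% against 56.9% and 69.7%. The Rps21 call was lost in 7 of 16 alternatives. With the stricter q the calls of Rps21, Rps15 and Rps6 were lost and that of Rps28 held. Each of these 4 calls with 40S names was lost without at least 1 of the 2 WT day 5 control libraries, and without replicate 2 of that group 8 members in all were called, 5 lower and 3 higher.

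The 5 members lower in KO line 1 at day 5 in control medium were Rpl41, Rps29, Rps20, Rpl29 and Rpl7l1. Rpl41 was listed at 0 in KO line 1, in this and in its other 4 libraries, against 80.5% and 49.1% in WT (difference −64.8 points, limma adjusted p = 0.000983). Rps29 was also at 0 in all 5 libraries of the line, against 29.6% and 44.8%. Rps20 had 39.8% against 63.0% and 71.6%, Rpl29 42.2% against 57.1% and 65.9%, and Rpl7l1 70.4% against 90.0% and 88.7%. When libraries were centred Rps29, Rps20, Rpl29 and Rpl7l1 turned to positive differences, and the call of Rpl41 was lost (adjusted p = 0.109). The call of Rpl29 was lost without replicate 2 of WT day 5 control (0.0886) and that of Rpl7l1 without replicate 1 (0.0589).

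Under restriction at day 5 KO line 1 had 47 members above both WT libraries, 15 below both and 18 neither, ties at 0 included, where 10.1% of all genes were above both and 81.9% below both. By limma 22 members were higher and 5 lower, where 5.71% of all genes were higher and 67.8% lower, and with centred libraries 73 were higher and 2 lower, where 4220 of the 9681 genes were higher and 2423 lower. Rps16, listed at 0 in both restricted WT libraries, had 62.6% in KO line 1 (limma adjusted p = 2.06e-05). Rpl27a had 72.2% against 17.6% and 23.3% (difference 51.7 points, SE 8.22, limma adjusted p = 0.000641), and Rps3a1 had 73.1% against 35.7% and 27.6% (limma adjusted p = 0.000138). Rplp1 had 64.2% against 0 and 38.0%, and Rpl30 49.9% against 0 and 21.1%. With the stricter q the calls of Rps16, Rplp1, Rpl30 and Rpl31 were lost, and counting bases in no other protein-coding gene lost those of Rpl31 (limma adjusted p = 0.0705) and Rpl5 (0.0842). Rpl22 had 58.3% in both WT libraries and 2.96% in KO line 1 (limma adjusted p = 7.4e-06), and Rpl31, Rpl5 and Rps7 differed by −28.8, −22.1 and −20.3 points, with positive differences when libraries were centred.

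**Figure D5:**
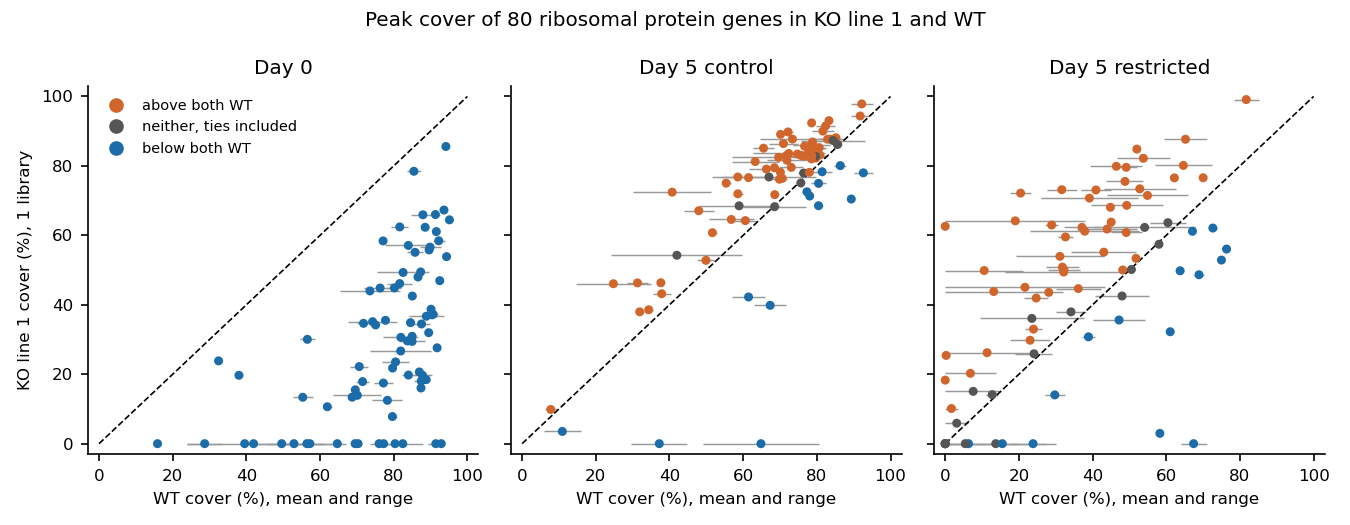
Cover of the 80 tested genes in the single KO line 1 library (y axis) against the mean of the 2 WT libraries of the same condition (x axis, with a line from the lower to the higher WT value) at day 0 and at day 5 in both media. All 80 genes lie below both WT libraries at day 0, whereas at day 5 58 lie above both with control medium and 47 with restriction.

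The change from day 0 to day 5 in control medium was compared between KO line 1 and WT in the same fit. Between these libraries it was more positive in KO line 1 for 67 of 80 members and more negative for 0 (limma adjusted p under 0.05), where 35.2% of all genes were more positive and 4.71% more negative. The median over the members was 51.4 points. Each KO arm of this difference is 1 library, with 17.7 Mb covered at day 0 and 74.1 Mb at day 5, so the line and its libraries cannot be told apart. Rps15 rose from 0 to 85.1% in KO line 1 and went from 76.9% and 88.0% to 68.4% and 62.6% in WT (difference 102 points, SE 9.24, limma adjusted p = 0.000142). Rpl30, Rps21, Rps18 and Rps25 were also at 0 in KO line 1 at day 0 and had 46.1% to 80.1% at day 5. Over the 5 conditions the widest mean cover in KO line 1 was that of Rpl3 (73.6%), Rpl13a (61.2%), Rpl23 (61.1%), Rpl11, a binding partner of 5S ribosomal RNA (57.1%), and Rps24 (54.9%). Rpl3 had 85.6% at day 0, 85.7% at day 1 in control medium, 97.8% at day 5 in control medium and 99.1% at day 5 under restriction, and 0 at day 1 under restriction.

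Peaks on the members also ended differently in KO line 1. At day 5 in control medium the 5 segments from 5′ to 3′ had 19.2%, 76.6%, 87.4%, 96.4% and 87.5% cover, and the 1 kb beyond the gene had 55.4%, where WT had 91.4%. Under restriction the KO line 1 segments had 6.7%, 35.8%, 67.4%, 64.2% and 44.6%, so cover was highest in the middle of the gene, while WT was highest in segment 5 with 67.0%. In the control day 5 list of KO line 1 the best peak of a member stood at the median percentile 99.1 of all peaks by the authors' fold enrichment. The WT control lists gave 97.1 to 98.6 over both days, and the WT day 0 lists gave 99.6 and 99.3. Ranks from lists of unequal length show no change. The 5 differentiated muscle markers had a summed cover of 52.2% in KO line 1 at day 5 in control medium, with 0 of 5 marked, against 429% and 450% in WT. The part of that difference in the members' result was not tested, and as each KO condition is 1 library, library and line cannot be told apart.

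Other genes of the translation machinery were counted beside the members. The 4 ribosomal proteins outside the symbol rule were all called lower under restriction at day 1 and 3 of 4 at day 5. Fau, which is made as a fusion with a ubiquitin-like protein, had a mean of 68.2% in control medium and 18.2% under restriction at day 1. Of 16 translation factors and other TOP messages 15 were tested, and 10 were lower at day 1 and 7 at day 5, where 35.8% and 41.4% of all genes were, with medians of −16.3 and −10.5 points. Of 26 ribosome biogenesis genes, which work in the nucleolus, 24 were tested, and 10 were lower and 3 higher at day 1 and 5 lower and 4 higher at day 5, with medians of −4.95 and −0.0218 points. Of all genes 2.3% and 4.26% were higher, and the 10 lower of 24 are near the background of day 1. In KO line 1 at day 5 in control medium 18 of the 24 biogenesis genes and 5 of the 15 translation factors were lower than WT and 0 of either list were higher, where 73.2% of all genes were lower, so the biogenesis genes' share was near the background. The medians there were −34.7 and −7.21 points, beside 6.18 for the members.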

How the data were processed

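H3K36me3 ChIP-seq peaks of 20 libraries were used, 1 deposited list per library; the input library has no list used here. The authors deposited 9-column broad peaks called per library: a score, a fold enrichment (a ratio), and −log10 p and −log10 q values per peak. The authors' score was not used, their fold enrichment only ranked peaks within a list, and −log10 q only filtered. The build is GRCm38 per the submitters' processing notes; the aligner, peak caller, control and read filters are not given in the sources used here. The lowest deposited −log10 q was 1.00 to 1.96 by list.

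Peaks were merged, and cover was the percent of a RefSeq GRCm38.p6 gene body inside them. Protein-coding genes with a mean WT cover of at least 5% (9681) were tested with limma 3.58.1 in R 4.3.3 (lmFit, eBayes with trend and robust settings), groups sharing 1 spread, Benjamini-Hochberg adjusted within a contrast, called under 0.05. KO lines averaged over conditions had condition as an additive term. The interval arithmetic and the limma step were checked on simulated data. Python 3.11.15 and pandas 2.3.3 did the rest. Strand came from the promoter table for 64 members.

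The members and lists were chosen with earlier results of these data known. Named members were, per WT contrast, up to 5 called in each direction with the largest difference and no overlap between groups (not required for the difference between days), the paralogs, the stalk genes, the 5 highest and the lowest in WT, the 5 highest in KO line 1 and any with cover in KO line 2. The fits of KO line 1 within conditions, the members named from them and the profile along the gene were added after seeing the data. Alternatives changed the q limit, list length, centring, gene length, cover filter, overlapping genes, limma settings, libraries fitted, replicate block, and left out libraries. Values of some genes are not reported here.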

Additional observations from a re-analysis of the deposited data

Results flagged for a closer look

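The restriction effect differed between day 5 and day 1, by an interaction term in limma, for Rpl28 (39.4 points, adjusted p = 0.00709), Rps12 (30.6 points, adjusted p = 0.0118) and Rps16 (−28.2 points, adjusted p = 0.0443), where 3.53% of all genes were lower and 1.58% higher. Over both directions together the members' share was no more than that of all genes. For higher calls alone, those of Rpl28 and Rps12, it was slightly above. The calls of Rpl28, Rps12 and Rps16 were lost in 1 of 19, 4 of 20 and 11 of 20 alternatives. Rps12 has 23 annotated pseudogene copies. The change from day 0 to day 5 in control medium differed between the KO line 1 libraries and WT for 67 of 80 members, all more positive in KO line 1 (35.2% of all genes were more positive and 4.71% more negative), by the corresponding limma interaction in a fit with 1 KO library per condition, whose spread is assumed to be that of the WT pairs and in which line and library cannot be told apart.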

How the results depend on the processing

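Peak lists carry no read depth, so cover near a peak's edge or at a list's weakest peaks has no interval, and 2 WT libraries per group and 1 per KO condition limit the tests. Both restriction counts kept their direction under every alternative run, apart from the members called higher when libraries were centred. Centring gave 31 calls for restriction at day 5, 1 from day 0 to day 1, 8 from day 0 to day 5 (1309 lower and 1612 higher over all genes), 4 from day 1 to day 5 (1160 and 973), 38 for KO line 2 (30 lower, 8 higher), and for KO line 1 32 at day 0, 34 at day 1 in control medium, and 78 and 75 in the day 5 control and restricted libraries. Centring also turned the sign of Rps29 (7.19), Rps20 (16.9), Rpl29 (25.2) and Rpl7l1 (25.5) in KO line 1 at day 5 in control medium, of Rpl31 (6.74), Rpl5 (13.5) and Rps7 (15.2) under restriction, and of Rpl36 from day 0 to day 1 (1.42). Shortened lists gave 7 calls for the difference between days (1 lower, 6 higher; of 8449 genes 243 and 348), 3 lower from day 0 to day 1 (116 genes lower) and 4 lower from day 1 to day 5 (914 genes lower). Peaks with a −log10 q of at least 3 gave 7 for the difference between days and 12 for KO line 1 at day 1 under restriction. Genes of at least 2 kb gave 3 from day 0 to day 1, 8 from day 0 to day 5 and 7 for KO line 1 at day 5 in control medium. Fits of only the libraries compared gave 0 from day 0 to day 1 and 2 from day 1 to day 5. The cause was not tested. For the stricter q and the 2 kb limit the counts over all genes are not given here, so those counts have no background beside them. The 2 kb limit also leaves out short members, and 14 of the 84 are under 2 kb. With at least 25% cover, marked members were 43 in KO line 1 at day 0, 34 at day 1 in control medium, 42 and 54 in restricted WT at days 1 and 5, and 1 in KO line 2 at day 5 in control medium. With at least 75% they were 2 in KO line 1 at day 0, 1 at day 1 and 10 at day 5 under restriction, 37 and 38.5 in WT control medium at days 1 and 5, and 1 and 2.5 in restricted WT. The stricter q gave 8.5 in restricted WT at day 1 and 4 in KO line 1 at day 1. Leaving out 1 WT library gave 61 to 72 calls for restriction at day 1, 44 to 70 at day 5, 1 to 9 for the difference between days, 0 to 6 from day 0 to day 1, 7 to 16 from day 0 to day 5 and 0 to 2 from day 1 to day 5. For KO line 1 it gave 72 to 77 at day 0, 68 to 75 and 43 to 51 in the control and restricted libraries of day 1, 8 to 18 and 25 to 39 at day 5, and 59 to 70 for the change from day 0 to day 5. The difference between days had 9 calls without replicate 1 of restricted day 1, 1 without replicate 1 of day 1 control and 1 without replicate 2 of restricted day 5. From day 0 to day 1 there were 3 and 2 without day 0 replicates 1 and 2, 1 and 0 without those of day 1 control, and 3 without either of restricted day 5. Marked members ranged over 73 to 74, 67 to 67, 11 to 18, 67 to 69 and 25 to 27 in the 5 WT groups. The replicate block gave 70 calls for restriction at day 1, 63 at day 5, 2 for the difference between days, 4 from day 0 to day 1, 10 from day 0 to day 5 and 0 from day 1 to day 5. Same replicate numbers showed no positive pairing, as correlations of same-numbered deviations ran from −0.427 to 0.0574. The −0.427 was between day 0 and day 1 control, so opposite-numbered libraries of those groups deviated alike, and its cause was not tested. Over all alternatives of named members 779 calls held, 85 lost significance and 8 reversed.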
